A study of Mus musculus with 8 samples.

Results

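The 10 genes described here build fatty acids from carbohydrate carbon and put the first double bond into them. The set is defined by gene name (Acly, Acaca, Acacb, Fasn, Scd1, Scd2, Srebf1, Mlxipl, Me1 and Thrsp), with no threshold on a measured value but with earlier results of these data known, and all 10 are among the 49452 genes listed for brown adipose tissue (BAT). BAT came from male C57BL/6 mice in 4 groups of 2 libraries. Mice kept at 22 °C (replicates 4 and 7) and mice kept at 4 °C for 24 h (replicates 2 and 11) were 10 to 12 weeks old. The cold mice spent the last 4 h without food, and whether the 22 °C controls went without food as well is not clear from the study. Mice fed a normal chow diet (NCD, replicates 6 and 8) or a high-fat diet (HFD, replicates 2 and 6) were 32 weeks old and had been on their diet for 28 weeks. The study's methods describe the food of the NCD group as a control diet with 11% of its energy from fat and 62% from carbohydrate, against 54% and 22% in the HFD, and which of the 2 descriptions applies is not settled here. The labels number the libraries but do not say that each is a mouse of its own, so the p-values measure the spread between these libraries.

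In de novo lipogenesis, citrate that has left the mitochondria is split by ATP-citrate lyase (Acly) into acetyl-CoA, which the acetyl-CoA carboxylases (Acaca and Acacb) turn into malonyl-CoA. Fatty acid synthase (Fasn) joins these units into palmitate with reducing power from NADPH, part of which malic enzyme (Me1) supplies, and the stearoyl-CoA desaturases (Scd1 and Scd2) make monounsaturated fatty acids. Transcription of these genes is driven mainly by the insulin-responsive factor SREBP-1 (Srebf1) and the carbohydrate-responsive factor ChREBP (Mlxipl), and Thrsp (Spot 14) is a nuclear and cytosolic protein that follows lipogenic activity. BAT is known for running this pathway alongside fatty acid oxidation, and both feeding and cold are known to act on it.

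Values are FPKM, which divide a gene's fragments by its transcript length and by the size of the library, so levels can be compared between genes. The autosomal FPKM of a library summed to 214753 to 466680. By the spacing of low values in genes with 1 exon, 1 fragment on a transcript of 2000 bases was worth 0.00439 to 0.00605 FPKM. The least abundant member, Scd2, then rested on an estimated 2496 to 10510 fragments per library and Scd1 on 703022 to 3140521. Such estimates speak to counting error alone, because the libraries carry no molecular identifiers and copies of a molecule are counted separately. The satellite-repeat gene Gm10800 stood at 447 to 15726 FPKM in NCD replicate 8, HFD replicate 2, 22 °C replicate 4 and 4 °C replicate 11, the satellite-high libraries, and at 0.0998 to 4.13 FPKM in the remaining 4, the satellite-low libraries, so each group holds both types. X-linked genes were listed at 0 in 22 °C replicates 4 and 7 and in NCD replicate 6, so those 3 libraries were tabulated differently. Of 37 mitochondrial genes, 0 or 1 were above 0 in these 3 libraries and 15 in each of the others. Both 22 °C libraries and neither 4 °C library are among the 3, so the difference in tabulation coincides with temperature. In the diet comparison NCD replicate 6 alone is among them. The satellite-low diet pair, NCD replicate 6 and HFD replicate 6, therefore differs in tabulation as well. The part of the tabulation in the cold and diet values was not tested. In the labels, the description of NCD replicate 6 begins with the same characters as those of the 22 °C and 4 °C libraries, whereas those of NCD replicate 8 and both HFD libraries begin with others, and the labels do not say what these characters stand for. Of the genes that define the tissue, Ucp1, the uncoupling protein of brown fat, was at 699 to 6462 FPKM and Cidea at 412 to 1116 FPKM. Skeletal muscle markers were present in every library as well, with a summed level of 14.8 to 4079 FPKM over the 11 markers found.

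All member genes lie on autosomes, 4 of them on chromosome 11 of GRCm38. Srebf1 (ENSMUSG00000020538) spans chr11:60199089-60222581 on the minus strand, Acaca (ENSMUSG00000020532) chr11:84129672-84401651 on the plus strand, Acly (ENSMUSG00000020917) chr11:100476353-100528000 on the minus strand and Fasn (ENSMUSG00000025153) chr11:120805846-120824547 on the minus strand. The desaturase genes are neighbours on chromosome 19, where Scd2 (ENSMUSG00000025203) at chr19:44293676-44306864 on the plus strand and Scd1 (ENSMUSG00000037071) at chr19:44394451-44407709 on the minus strand are separated by 87.6 kb. Acacb (ENSMUSG00000042010) at chr5:114146535-114250761 and Mlxipl (ENSMUSG00000005373) at chr5:135089890-135138382 are both on the plus strand of chromosome 5. Thrsp (ENSMUSG00000035686) lies at chr7:97412938-97417730 and Me1 (ENSMUSG00000032418) at chr9:86581371-86695953, both on the minus strand. The FPKM of a gene covers all of its transcripts and exons.

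Promoter sequences were available from RefSeq (GRCm38.p6) for 8 of the 10 genes, as 12 windows that run from 250 bases before a transcription start to 50 bases after it. Scd1 and Scd2 had no entry. 4 windows are shown: those of Fasn and Thrsp, whose levels differed most widely with diet among the members that have a CCAAT box in the window, and both windows of Mlxipl, because its 2 starts give different forms of ChREBP that the gene's FPKM does not separate. The Fasn window is chr11:120824498-120824797 and the Thrsp window chr7:97417501-97417800, both on the minus strand, and capitals mark the CCAAT box on either strand (read as ATTGG on the opposite strand). The Mlxipl windows are chr5:135089640-135089939 and chr5:135106641-135106940 on the plus strand, and capitals mark the E-box CACGTG, which reads the same on both strands.
Fasn: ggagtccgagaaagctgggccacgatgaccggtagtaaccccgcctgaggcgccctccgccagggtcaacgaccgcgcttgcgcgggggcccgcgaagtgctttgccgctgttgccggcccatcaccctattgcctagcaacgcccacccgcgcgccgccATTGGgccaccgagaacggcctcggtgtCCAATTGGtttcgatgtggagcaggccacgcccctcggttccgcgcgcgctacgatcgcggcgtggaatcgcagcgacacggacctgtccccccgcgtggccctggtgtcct
Thrsp: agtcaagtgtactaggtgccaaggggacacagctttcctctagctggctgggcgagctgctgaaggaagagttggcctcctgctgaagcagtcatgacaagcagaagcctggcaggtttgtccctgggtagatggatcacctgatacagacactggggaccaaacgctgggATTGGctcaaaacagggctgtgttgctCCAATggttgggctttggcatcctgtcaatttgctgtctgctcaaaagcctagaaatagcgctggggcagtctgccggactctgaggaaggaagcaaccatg
Mlxipl upstream start: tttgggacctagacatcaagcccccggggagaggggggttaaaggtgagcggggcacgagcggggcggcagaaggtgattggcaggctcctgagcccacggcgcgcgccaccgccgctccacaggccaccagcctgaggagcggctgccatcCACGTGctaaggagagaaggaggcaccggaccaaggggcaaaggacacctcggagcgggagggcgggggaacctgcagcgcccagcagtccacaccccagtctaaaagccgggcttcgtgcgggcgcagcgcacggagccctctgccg
Mlxipl downstream start: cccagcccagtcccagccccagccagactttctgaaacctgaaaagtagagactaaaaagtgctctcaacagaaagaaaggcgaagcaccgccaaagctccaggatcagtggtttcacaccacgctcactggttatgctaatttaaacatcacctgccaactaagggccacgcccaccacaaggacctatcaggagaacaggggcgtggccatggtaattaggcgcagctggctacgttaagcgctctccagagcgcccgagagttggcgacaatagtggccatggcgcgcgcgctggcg

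In the Fasn window an ATTGG began 90 bases before the start, and a CCAAT at 62 bases overlapped an ATTGG at 59 bases. In the Thrsp window an ATTGG began 79 bases and a CCAAT 52 bases before the start. A CCAAT box on either strand, the element bound by NF-Y, was found in 8 of the 12 windows, against 37.4% of all 32851 windows of the same length. CACGTG was found in 1 of the 12 windows, the upstream Mlxipl window, where it began 98 bases before the start, against 7.15% of all windows. That start lies 17001 bases upstream of the other and is the one known to give ChREBP-beta, the short form whose own promoter responds to ChREBP. These are matches of letters in a window and were not tested as binding sites.

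Scd1, the main desaturase of adipose tissue, was the most abundant member in every library, at 1435 to 5551 FPKM, and it ranked between 4 and 21 among all autosomal genes. Its range did not overlap that of Fasn (35.3 to 1272 FPKM), the next in mean level. Thrsp (85.7 to 645 FPKM) was above Acaca (33.4 to 343 FPKM) in 8 of 8 libraries. Acaca and Acly (26.9 to 362 FPKM) could not be ordered, since each was the higher in 4 of 8 libraries, and the same held for Acly and Me1 (29.4 to 239 FPKM). Acacb (38.0 to 111 FPKM) was above Srebf1 (24.0 to 65.1 FPKM) in 8 of 8 libraries, and Srebf1 was above Mlxipl (13.8 to 34.5 FPKM) in 7 of 8. Scd2, an isoform known mainly from brain and developing tissue, was the lowest member, at 5.22 to 16.4 FPKM. The members therefore spanned from a few FPKM for Scd2 up to the levels of Scd1, and the transcription factors were among the least abundant of them. Fasn had the widest range of the members, its highest library standing 36.1 times above its lowest, and Mlxipl the narrowest, with a ratio of 2.50.

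**Figure D1:**
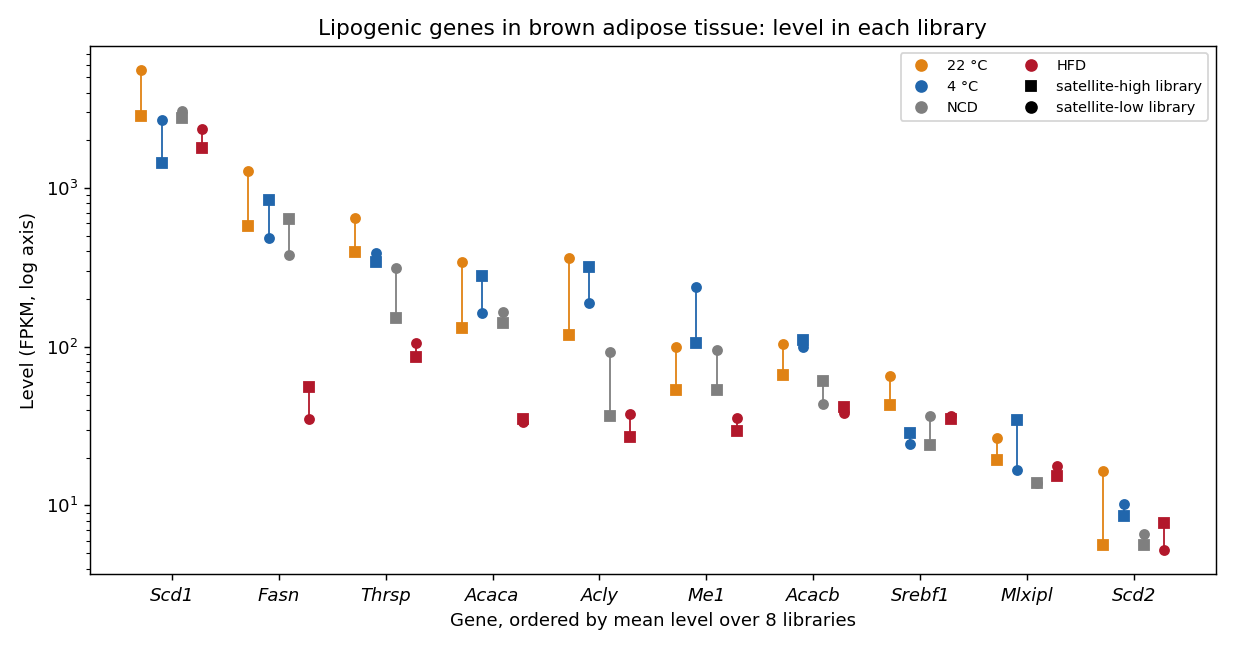
FPKM of each gene (log axis) in each library, with genes ordered by their mean over 8 libraries, colours for the 4 groups, squares for satellite-high and circles for satellite-low libraries, and a line joining the 2 libraries of a group. Fasn lies between 35.3 and 56.0 FPKM in the HFD libraries and between 377 and 1272 FPKM in the other 6.

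The cold comparison asked how 24 h at 4 °C acts on BAT. None of the members differed past the threshold (adjusted p under 0.05 and a log2 change of at least 1), and their directions were mixed. Me1, the malic enzyme, was the one member higher in both cold libraries than in both 22 °C libraries, whereas Srebf1, Scd1 and Thrsp were lower in both. The enzymes of the carbon chain itself (Acly, Acaca, Acacb and Fasn) had overlapping groups. By limma on log2(FPKM + 1), 252 of 17470 genes tested were past the threshold (1.44%), and 1 of the 10 members had an unadjusted p under 0.05, against 24.5% of all genes tested. The median log2 change was -0.03 over the members and 0.07 over all genes tested.

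Srebf1 measured 42.7 and 65.1 FPKM at 22 °C and 24.4 and 28.5 FPKM at 4 °C. The cold libraries lay below both controls, and the groups did not overlap. The log2 change was -0.97 (SE 0.28, 95% interval -1.67 to -0.28, adjusted p = 0.117), and the mean at 4 °C was 0.490 of that at 22 °C. With each library centred on its median, the change was -1.23 and past the threshold (adjusted p = 0.0416), whereas it did not pass under quantile normalization (-1.45, adjusted p = 0.0519) or rescaling without Ucp1 (-1.41, adjusted p = 0.0815). It was -0.57 in the satellite-high pair and -1.38 in the satellite-low pair of libraries. Scd1 measured 2864 and 5551 FPKM at 22 °C and 2687 and 1435 FPKM at 4 °C, so that one cold library lay just under the lower control. Its log2 change was -1.02 (SE 0.57, 95% interval -2.45 to 0.41, adjusted p = 0.326). It was -1.0 in the satellite-high pair and -1.05 in the satellite-low pair of libraries, but -0.54 without 22 °C replicate 7, -1.50 without 22 °C replicate 4 and -0.57 without 4 °C replicate 11. Thrsp measured 398 and 645 FPKM at 22 °C and 392 and 340.2 FPKM at 4 °C, and the groups were separated by a gap much smaller than the spread at 22 °C (log2 change -0.47, SE 0.36, adjusted p = 0.465). That change was -0.12 without 22 °C replicate 7 and -0.82 without 22 °C replicate 4.

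Me1 measured 53.1 and 100.2 FPKM at 22 °C and 239 and 105 FPKM at 4 °C. The cold libraries were the highest of all 8 for this gene, although the lower of them was close to the higher control. The log2 change was 1.11 (SE 0.51, 95% interval -0.16 to 2.38, adjusted p = 0.248). With library type as a covariate it had the same size with an SE of 0.22, and Me1 was past the threshold (adjusted p = 0.0443), as was 4.32% of the genes tested in the same direction. The change was 0.97 in the satellite-high pair and 1.25 in the satellite-low pair. In the fit of all 8 libraries with library type Me1 did not pass (adjusted p = 0.0539). The change was 0.52 without 4 °C replicate 2, 0.66 without 22 °C replicate 4 and 1.70 without 4 °C replicate 11.

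Acly measured 118 and 362 FPKM at 22 °C and 189.9 and 319 FPKM at 4 °C, Acaca 132 and 343 against 162 and 281 FPKM, and Fasn 576 and 1272 against 487 and 843 FPKM. In each of these enzymes the spread at 22 °C exceeded the difference between the groups. Acacb, the carboxylase at the mitochondrial outer membrane whose product restrains fatty acid entry, measured 66.6 and 104 FPKM at 22 °C and 99.4 and 111 FPKM at 4 °C. Mlxipl measured 19.4 and 26.6 against 16.6 and 34.5 FPKM, and Scd2 5.64 and 16.4 against 10.2 and 8.54 FPKM. These 6 genes had log2 changes between -0.42 (Fasn) and 0.33 (Acacb), with adjusted p from 0.535 to 0.996. The change of Acacb was 0.01 without 22 °C replicate 4 and 0.65 without 22 °C replicate 7. The signs for Acly, Acaca and Mlxipl turned under median centring, quantile normalization and rescaling without Ucp1, and that for Acacb under the last 2 of these.

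The 2 libraries at 22 °C themselves stood apart in this pathway. All 10 members were higher in replicate 7 than in replicate 4, by a median of 0.93 on the log2 scale, whereas the median over 10877 autosomal genes at 1 FPKM or more was 0.04. Acly was 3.07 times, Scd2 2.91 times, Acaca 2.60 times and Fasn 2.21 times as high in replicate 7. In the other groups the members did not all go one way, with 6 of 10 higher in replicate 11 at 4 °C, 2 of 10 higher in replicate 8 on NCD and 6 of 10 higher in replicate 6 on HFD. Replicate 4 is satellite-high and replicate 7 satellite-low. The cold change had opposite signs in the 2 library types for 6 of the 10 members, against 29.9% of all genes tested. Acly was at 1.43 in the satellite-high pair and -0.93 in the satellite-low pair, Acaca at 1.09 and -1.07, and Fasn at 0.55 and -1.38. Without 22 °C replicate 7 the change of Fasn was 0.15, and without 22 °C replicate 4 those of Acly and Acaca were -0.55 and -0.68. Non-overlapping groups were frequent among all genes in this comparison, at 37.9% in the higher and 20.6% in the lower direction, against 1 and 3 members of 10.

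**Figure D2:**
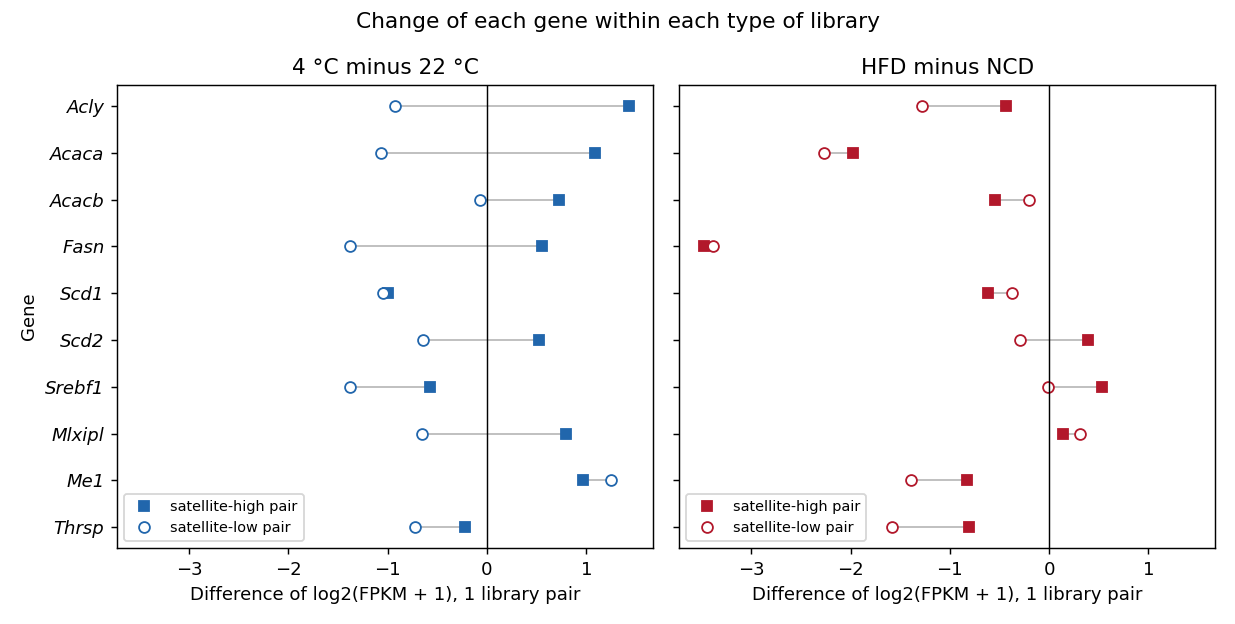
Difference of log2(FPKM + 1) for each gene within the satellite-high pair (filled squares) and the satellite-low pair (open circles) of libraries, for cold (left) and diet (right), with 1 library a group and no error. In cold the pair of symbols straddles 0 for 6 of the 10 genes, while under HFD 7 genes lie below 0 in both pairs.

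Skeletal muscle markers moved with the cold comparison. All 11 muscle markers found were higher in both cold libraries, with a summed level of 106 and 530 FPKM at 22 °C and 1841 and 4079 FPKM at 4 °C. Myh7, the slow myosin heavy chain, was past the threshold (log2 change 3.94, adjusted p = 0.0176). Whether muscle RNA had a part in the members' values was not tested in these 4 libraries alone. In a fit over all 8 libraries with the muscle score (mean log2 level of the markers) as a covariate, the cold change that moved most was that of Acly, from 0.25 to 1.97 (SE 0.67, adjusted p = 0.243). Acaca moved from 0.01 to 0.85 (adjusted p = 0.544), Me1 from 1.11 to 1.77 (adjusted p = 0.310), Srebf1 from -0.97 to -0.38 (adjusted p = 0.657), Scd1 from -1.02 to -0.50 (adjusted p = 0.838) and Thrsp from -0.47 to 0.41 (adjusted p = 0.760), and no member passed. Adipocyte markers moved with cold as well. Of the 10 brown adipocyte markers, 7 were higher and 2 lower without overlap, against 37.9% and 20.6% of all genes tested. Dio2 (log2 change 3.01, adjusted p = 0.0196), the deiodinase that activates thyroid hormone, and the coactivator gene Ppargc1a (2.92, adjusted p = 0.0208) rose past the threshold. Myh7, Dio2 and Ppargc1a all lost their calls without a filter, without an intensity trend and with the muscle score, where no gene passed. Most of them also lost their calls without 4 °C replicate 2, a fit that leaves a lone cold library. Of the 9 general adipocyte markers 7 were higher and 2 lower without overlap, against the same shares of all genes, and none passed. Of the 5 white adipocyte markers 2 were higher and 2 lower, and none passed. The higher ones were Agt (1.60, adjusted p = 0.0751) and Retn (1.27, adjusted p = 0.177). The lower ones were Lep (-2.13, adjusted p = 0.0526) and Nnat (-1.85, adjusted p = 0.0517). The part of the adipocyte markers in the members' values was not tested. In bulk tissue, fewer cells of a type and less RNA per cell cannot be told apart.

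The diet comparison asked how prolonged HFD feeding acts on BAT. Fasn and Acaca had the lowest levels of the series in both HFD libraries, Fasn with an NCD mean 11.1 times and Acaca 4.46 times the HFD mean. Thrsp, Me1, Acacb and Scd1 were also lower in both HFD libraries than in both NCD libraries, Acly overlapped, and the transcription factor genes Srebf1 and Mlxipl were not lower. In the test without a covariate no member was past the threshold by limma, as 12 of 17535 genes were (0.0684%), and 2 of the 10 members (Fasn and Acaca) had an unadjusted p under 0.05, against 14.4% of all genes tested, a share near that background. With library type as a covariate, Fasn, Acaca, Me1 and Thrsp fell past the threshold, against 0.895% of the genes tested in that direction. That covariate was listed with the alternatives, with earlier results of these data known.

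Fasn measured 377 and 634 FPKM on NCD and 56.0 and 35.3 FPKM on HFD (505 ± 182 and 45.7 ± 14.7 FPKM, SD, n = 2). The groups were far apart, with the lower NCD library several times above the higher HFD library. The log2 change was -3.43 (SE 0.57, 95% interval -4.76 to -2.09, adjusted p = 0.120), and only 8 of the 17535 genes tested had a lower value. With library type as a covariate the SE was 0.21 and the adjusted p 0.00129. The change was -3.48 in the satellite-high and -3.38 in the satellite-low pair. Without NCD replicate 6 it was -3.80 (adjusted p = 5.19e-05) and without NCD replicate 8 it was -3.05 (adjusted p = 0.00350), but Fasn did not pass without HFD replicate 2 (-3.75, adjusted p = 0.0949) or without HFD replicate 6 (-3.10, adjusted p = 0.462). Each of these fits assumes that the lone library of a diet varies like the pair of the other.

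Acaca, the cytosolic carboxylase, measured 165 and 142 FPKM on NCD and 35.3 and 33.4 FPKM on HFD (153 ± 16.0 and 34.4 ± 1.36 FPKM, SD, n = 2). Replicates of this gene were close in both diets, and the groups did not overlap. The log2 change was -2.12 (SE 0.46, 95% interval -3.19 to -1.05, adjusted p = 0.151). With library type as a covariate the adjusted p was 0.00460, without NCD replicate 6 it was 0.0467 (change -2.02) and without NCD replicate 8 it was 0.0428 (change -2.23). Acaca did not pass without HFD replicate 2 (-2.16, adjusted p = 0.506), without HFD replicate 6 (-2.08, adjusted p = 0.836) or in the fit of all 8 libraries with library type (adjusted p = 0.0633), where Fasn passed (adjusted p = 0.0394). With libraries centred on their medians Acaca (-2.48) and Fasn (-3.78) were both past the threshold, each with an adjusted p of 0.0319. That centring moved the median of all genes tested from 0.18 to -0.18 under HFD and from 0.07 to -0.18 in cold.

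Thrsp measured 315 and 151 FPKM on NCD and 85.7 and 105 FPKM on HFD, a lower level in both HFD libraries with a wide spread on NCD. Its log2 change was -1.20 (adjusted p = 0.406), and with library type as a covariate the adjusted p was 0.0267. Me1 measured 95.1 and 53.0 FPKM on NCD and 29.4 and 35.8 FPKM on HFD, with a log2 change of -1.11 (SE 0.48, 95% interval -2.24 to 0.02, adjusted p = 0.354) and an adjusted p of 0.0199 with the covariate. For both genes the satellite-low library was the higher on either diet. Without NCD replicate 6 the changes were -0.67 for Thrsp and -0.69 for Me1, without NCD replicate 8 they were -1.72 and -1.52, and in the fit of all 8 libraries with library type neither gene passed (adjusted p = 0.0867 and 0.0680). Acly measured 92.6 and 36.7 FPKM on NCD and 26.9 and 37.5 FPKM on HFD. Its groups overlapped by a narrow margin, and its log2 change of -0.86 had an adjusted p of 0.533 without and 0.0572 with library type. It was -0.20 without NCD replicate 6, -1.51 without NCD replicate 8 and -2.62 with the muscle score, described with the markers, as a covariate over all 8 libraries.

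Acacb measured 43.8 and 61.0 FPKM on NCD and 41.5 and 38.0 FPKM on HFD, and Scd1 measured 3041 and 2755 against 1795 and 2355 FPKM. Both were lower in both HFD libraries, by small margins, with log2 changes of -0.37 (95% interval -1.40 to 0.65) and -0.49 (95% interval -2.36 to 1.37) that did not pass with or without the covariate. Without single libraries the change of Scd1 ranged from -0.69 (HFD replicate 6 left out) to -0.30 (HFD replicate 2 left out), and that of Acacb from -0.61 (NCD replicate 6 left out) to -0.14 (NCD replicate 8 left out). Srebf1 measured 36.8 and 24.0 FPKM on NCD and 35.1 and 36.5 FPKM on HFD, so the HFD libraries lay within the NCD range. Mlxipl measured 13.9 and 13.8 FPKM on NCD and 15.3 and 17.6 FPKM on HFD. It was the one member higher in both HFD libraries, by 0.23 on the log2 scale (95% interval -0.60 to 1.06, adjusted p = 0.810), a sign that turned under median centring and quantile normalization. Scd2 measured 6.59 and 5.66 against 7.73 and 5.22 FPKM, with overlapping groups.

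Among the members 6 of 10 were lower without overlap under HFD, against 5.80% of the genes tested, and 1 of 10 was higher, against 39.9%. The median log2 change was -0.68 over the members and 0.18 over all genes tested. In both library types alike, 7 of 10 members were lower, against 11.8% of all genes tested. Of the 9 adipocyte markers, 7 overlapped between the diets, Lipe was higher without overlap (253 and 186 FPKM on NCD, 284 and 378 FPKM on HFD) and Lpl was lower without overlap by a small margin (433 and 433 against 416 and 357 FPKM). Of the 10 brown adipocyte markers, 3 were higher and 1 lower without overlap, against 39.9% and 5.80% of the genes tested. The higher ones were Dio2 (log2 change 0.86, adjusted p = 0.458), Ppargc1a (0.40, 0.616) and Prdm16 (0.14, 0.839), and Ucp1 overlapped (-0.21, 0.930). The lower one was Cidea, at 1116 and 760 FPKM on NCD and 464 and 412 FPKM on HFD (log2 change -1.07, adjusted p = 0.512, and 0.0484 with library type as a covariate).

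**Figure D3:**
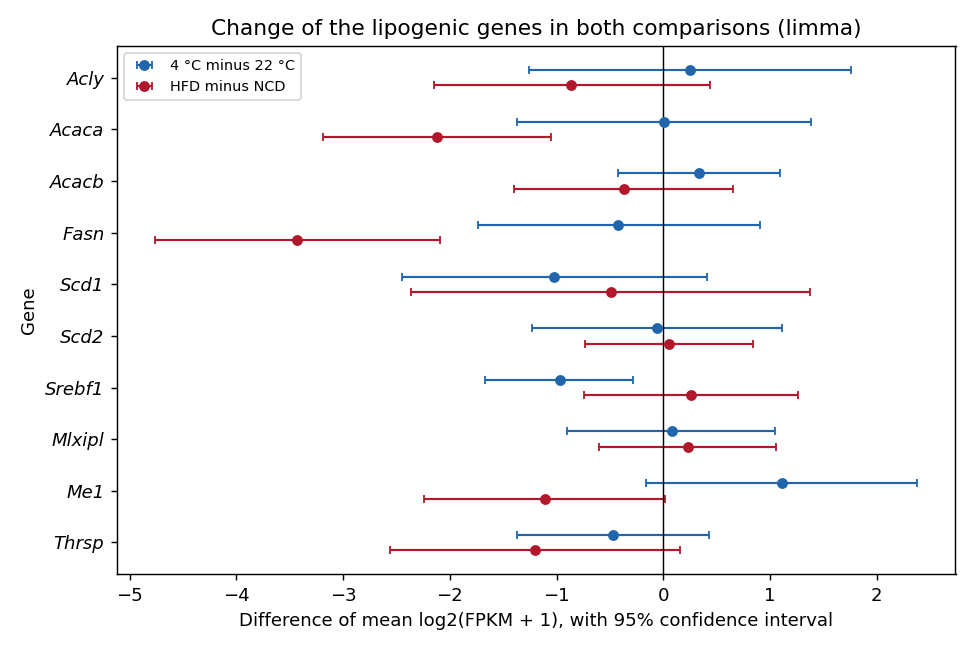
Difference of mean log2(FPKM + 1) for each gene with its 95% confidence interval from limma, for 4 °C minus 22 °C (blue) and HFD minus NCD (red), each from 2 libraries against 2. The HFD intervals of Fasn (-4.76 to -2.09) and Acaca (-3.19 to -1.05) and the cold interval of Srebf1 (-1.67 to -0.28) do not reach 0, and none of the 3 was past the threshold after adjustment over all genes.

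Markers of other cells moved with diet too. The 11 skeletal muscle markers summed to 543 and 1447 FPKM on NCD and 174 and 14.8 FPKM on HFD, and 10 of them were lower without overlap. The 7 macrophage markers were all higher without overlap under HFD, with a sum of 39.7 and 109 FPKM on NCD and 192 and 244 FPKM on HFD. Of the white adipocyte markers, Lep rose from 2.93 and 0.307 FPKM to 61.7 and 83.5 FPKM (log2 change 5.0, adjusted p = 0.0425). Nnat rose from 5.27 and 3.33 FPKM to 88.7 and 70.6 FPKM (log2 change 3.94, adjusted p = 0.0425). Both calls were lost without a filter on low values, under quantile normalization and rescaled without Ucp1, where no gene passed. The same held with X, Y and mitochondrial genes kept, with the muscle score as a covariate and without an intensity trend. Over all 8 libraries with the muscle score as a covariate, the HFD change of Fasn was -3.42 (adjusted p = 0.317) and that of Acaca -2.98 (adjusted p = 0.292), while Thrsp moved from -1.20 to -2.09 (adjusted p = 0.352), Me1 from -1.11 to -1.79 (adjusted p = 0.476) and Scd1 from -0.49 to -1.03 (adjusted p = 0.780). The part of macrophage or white adipocyte RNA in the members' values was not tested.

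The difference between the cold effect and the diet effect was tested directly over all 8 libraries. No member was past the threshold by limma, as 196 of 18894 genes were (1.04%), and 4 of the 10 had an unadjusted p under 0.05, as 18.4% of all genes tested did. Those 4 were Fasn, with a difference of 3.01 on the log2 scale (adjusted p = 0.115), Acaca with 2.13 (adjusted p = 0.182), Me1 with 2.22 (adjusted p = 0.175) and Srebf1 with -1.24 (adjusted p = 0.211). With the muscle score as a covariate the difference was -0.02 for Srebf1 (adjusted p = 0.993), 3.0 for Fasn (0.532), 3.83 for Acaca (0.407) and 3.56 for Me1 (0.447). Me1 was higher in both cold libraries and lower in both HFD libraries than in the respective controls, and with library type as a covariate its difference passed (adjusted p = 0.0378), as was the case for 1.83% of all genes tested in that direction. Srebf1 was lower in both cold libraries, and its HFD libraries lay within the NCD range. The mice of the cold and the diet experiment differ in age, which cannot be told apart from the treatments in this difference.

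The levels of paralogs relative to each other differed between some of the groups. Within a library the ratio of 2 genes does not depend on how that library was scaled. The ratio of Acaca, which serves fatty acid synthesis, to Acacb, which serves the control of oxidation, came to 1.98 and 3.29 in the 22 °C libraries, 1.63 and 2.53 in the 4 °C libraries, 3.76 and 2.33 on NCD, and 0.852 and 0.878 on HFD. Acaca was thus the more abundant carboxylase transcript in all 6 libraries of the other groups and Acacb in both HFD libraries, where it differed little between them. The cold groups overlapped in this ratio. The ratio of Scd1 to Scd2 came to 508 and 339 in the 22 °C libraries, 264 and 168 in the 4 °C libraries, 462 and 487 on NCD, and 232 and 451 on HFD. It was lower in both cold libraries than in both at 22 °C, and lower on HFD than on NCD, with 1 HFD library close to NCD. Ratios are given as a description with no test. Scd1 and Scd2 are similar in sequence, and a small share of Scd1 fragments assigned to Scd2 would weigh on the far lower value of Scd2, which was not tested.

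**Figure D4:**
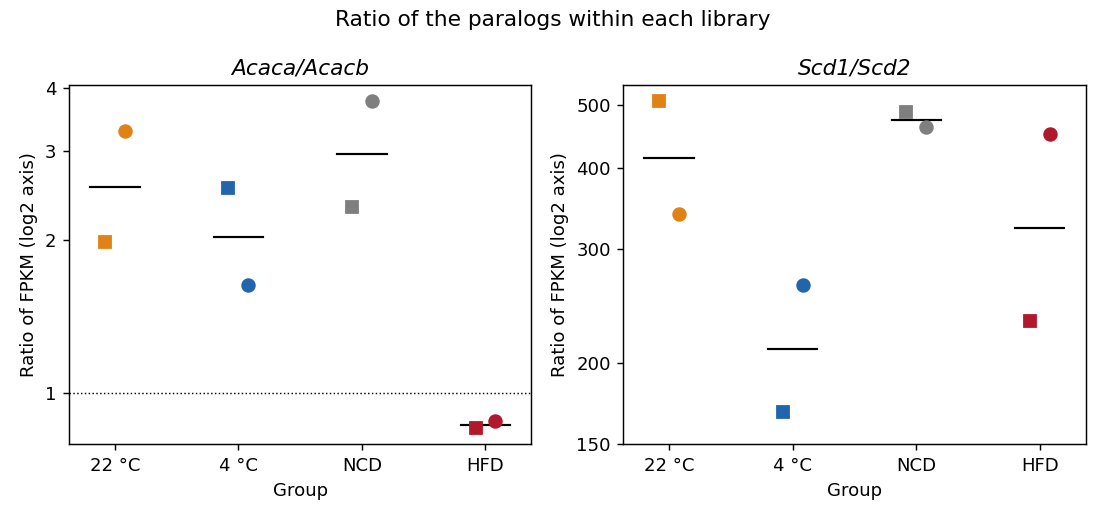
Ratio of FPKM of Acaca to Acacb (left, dotted line at 1) and of Scd1 to Scd2 (right) in each library, on log2 axes, with squares for satellite-high and circles for satellite-low libraries and a bar at the geometric mean of the 2 libraries of a group. Both HFD libraries lie below 1 for Acaca to Acacb, at 0.852 and 0.878, and all others lie at or above 1.63.

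The share of the members' summed FPKM taken by Scd1 was 65.4% to 67.0% at 22 °C, 40.9% to 62.4% at 4 °C, 71.1% to 72.6% on NCD and 84.3% to 87.3% on HFD. Fasn took 9.00% to 24.0% in the other groups and 1.31% to 2.63% on HFD. The summed level itself came to 4275 and 8485 FPKM at 22 °C, 4308 and 3508 FPKM in the cold, 4186 and 3876 FPKM on NCD and 2128 and 2699 FPKM on HFD. The pool was lower in both HFD libraries than in any other, and it consisted there mostly of desaturase transcript.

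Across the 8 libraries the members varied together in part. Pearson's r on log2(FPKM + 1) had a median of 0.56 over the 45 pairs, with 8 pairs above 0.8, and the points share groups, library types and scaling, so these values are a description. Acaca and Fasn were the closest pair (r = 0.97), and Acly and Thrsp followed each other as well (r = 0.92). Srebf1 was the member least like the rest, with r = 0.30 to the mean profile of the other 9, followed by Scd1 with 0.43 and Mlxipl with 0.56, while Acly (0.94) and Thrsp (0.93) were the most like it. With the group means removed, the median over pairs was 0.53, and Srebf1 then followed Acly (r = 0.98) and Thrsp (r = 0.89), which in the 8 libraries as they stand it followed less closely (r = 0.30 and 0.38). Acaca and Fasn kept an r of 0.76 within groups, and Fasn with Thrsp went from 0.85 to -0.15. With 2 libraries a group the centred values mirror each other. Each r with the group means removed therefore rests on the single difference within each of the 4 groups.

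The autosomal genes whose profile was most like the members' mean profile, of 10867 ranked by Pearson's r over the 8 libraries, were Slc25a1 (r = 0.967), Irs1 (0.937), Acss2 (0.936), Slc22a15 (0.934) and Pfkfb3 (0.932). Slc25a1, the mitochondrial citrate carrier, measured 92.1 and 176 FPKM at 22 °C, 93.5 and 79.1 FPKM at 4 °C, 79.5 and 46.8 FPKM on NCD and 35.5 and 33.9 FPKM on HFD. Acss2, which makes acetyl-CoA from acetate, measured 45.8 and 130.1 FPKM at 22 °C, 46.6 and 37.7 FPKM at 4 °C, 36.6 and 18.0 FPKM on NCD and 18.8 and 20.6 FPKM on HFD. Both were highest in 22 °C replicate 7, as were 7 of the 10 members, while Me1, Mlxipl and Acacb peaked in a 4 °C library. Irs1 is an insulin receptor substrate and Pfkfb3 makes the glycolytic activator fructose 2,6-bisphosphate.

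Other genes of the pathway were taken from 4 lists of 42 genes in all, 40 of which were tested. Among 11 genes of substrate and NADPH supply, none was past the threshold in either comparison. In cold, Pgd, an enzyme of the pentose phosphate pathway, had a log2 change of 1.33 (adjusted p = 0.173), Acss2 -0.87 (0.348) and the glucose transporter Slc2a4 0.81 (0.128). With library type as a covariate Pgd passed (adjusted p = 0.0273). Under HFD, Aacs was at -0.85 (adjusted p = 0.516), Tkt at -0.81 (0.589) and Slc25a1 at -0.80 (0.492).

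Of the other elongation and desaturation enzymes 8 of 10 were tested. Elovl3, the elongase of very long chain fatty acids in BAT, measured 7.59 and 27.1 FPKM at 22 °C and 547 and 252 FPKM at 4 °C and rose past the threshold (log2 change 4.58, SE 0.66, adjusted p = 0.0466), alone among the 8. Elovl6, which lengthens the palmitate made by Fasn, measured 39.2 and 107 against 127 and 185 FPKM (1.23, adjusted p = 0.220), and Scd3 had a log2 change of -1.15 (adjusted p = 0.461). Under HFD 3 of the 8 were higher without overlap, against 39.9% of all genes tested, and 3 were lower, against 5.80%. Elovl3 stood at 18.1 and 17.8 FPKM against 234 and 118 FPKM on NCD (-3.14, adjusted p = 0.118). Elovl6 was at 14.4 and 14.7 against 74.5 and 60.5 FPKM (-2.13, adjusted p = 0.141). The log2 change was 2.32 for Fads3 (adjusted p = 0.118) and 1.29 for Elovl1 (adjusted p = 0.160). None of these passed without the covariate. With it, Elovl3 and Elovl6 fell (adjusted p = 0.00347 and 0.00350) and Fads3 and Elovl1 rose (adjusted p = 0.00207 and 0.00774), against 0.895% of all genes tested in the lower and 3.35% in the higher direction.

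Among 15 regulators of the pathway, Mlycd, which degrades malonyl-CoA, rose in cold (log2 change 1.88, adjusted p = 0.0442). Insig2, which retains the SREBP complex in the endoplasmic reticulum, was at 1.23 (adjusted p = 0.165) and Prkaa2, a catalytic subunit of AMPK, at 0.93 (adjusted p = 0.0707). Under HFD none of the 15 passed, with Mlycd at -0.74 (adjusted p = 0.517), Insig1 at -0.59 (0.691) and Srebf2 at 0.47 (0.433). Of the 6 genes of triglyceride assembly, the phosphatidate phosphatase gene Lpin1 rose in cold (1.52, adjusted p = 0.0495), and Gpam (1.57, adjusted p = 0.0529) and Pnpla3 (-1.40, adjusted p = 0.0852) did not pass. With library type as a covariate Insig2 (adjusted p = 0.0450), Gpam (0.0257) and Pnpla3 (0.0282) passed in cold as well, against 4.32% of all genes tested in the higher direction, that of Insig2 and Gpam, and 0.601% in the lower direction, that of Pnpla3. Under HFD none of the 6 passed, with Lpin1 at 0.69, Pnpla3 at 0.56 and Gpam at -0.27 (adjusted p = 0.507, 0.554 and 0.837). In all, 3 of the 40 genes tested passed in cold (Elovl3, Mlycd and Lpin1), all higher, against 1.44% of all genes tested. Under quantile normalization 3 passed, 2 higher and 1 lower, and under rescaling without Ucp1 3 passed, 1 higher and 2 lower. An unadjusted p under 0.05 was seen in 14 of the 40, against 24.5% of all genes tested. None of the 40 passed in cold without a filter on low values, without an intensity trend, with the muscle score as a covariate, or without 4 °C replicate 2 or replicate 11. Under HFD 0 of the 40 passed by limma, and 5 of the 40 had an unadjusted p under 0.05, against 14.4% of all genes tested.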

How the data were processed

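BAT RNA was depleted of ribosomal RNA by the authors, made into directional libraries and sequenced as paired ends. They mapped reads to GRCm38 with Tophat2 2.0.10 and derived gene values with Cufflinks (2.2.1 per the submitters' processing notes) on Ensembl release 87. The deposited table holds these FPKM values, 1 per gene and library, with no pooling. No counts were used here, so the count test of the authors was not repeated.

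The tests ran on log2(FPKM + 1) in limma 3.58.1 under R 4.3.3 (intensity trend, two-sided p-values, Benjamini-Hochberg adjustment over all genes tested), with the 4 libraries of a comparison, or all 8 for the difference of effects. A fold change on this scale understates that of low genes. Autosomal genes with at least 0.1 FPKM in at least 2 libraries were tested. Past the threshold means an adjusted p under 0.05 and a log2 change of at least 1. X-linked genes were left out because 3 libraries list them all at 0. Satellite-high means Gm10800 above 100 FPKM. Of the genes listed, 49109 matched GENCODE M21 of the same assembly. The fits were tested on simulated data.

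Members were defined by name. The members, lists, library types and alternatives were chosen with earlier results of these data known. Named were all members, the 3 genes of each other pathway list with the largest change in cold and under HFD, and the 5 genes most like the members' mean profile among genes averaging 1 FPKM or more. Elovl1 under HFD was named besides. In the difference of effects, the other pathway genes named were those whose groups did not overlap and went in opposite directions. Alternatives comprised pseudocount, filter, scaling, covariates, fits over all 8 libraries, and leaving out each library. Library type with median centring was added after the values were seen.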

Additional observations from a re-analysis of the deposited data

Results flagged for a closer look

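The effects of cold and of HFD differed for 1 gene of the pathway past the threshold and pointed in opposite directions, with no overlap between groups, for 6 others. Such opposite directions without overlap were seen in 7 of the 50 members and other pathway genes tested, against 11.7% of all 18894 genes tested. Higher in cold and lower under HFD were 4 of the 50, against 2.96% of all genes tested, and the reverse was seen in 3 of the 50, against 8.72%. Elovl3 passed the test of the difference between the effects (7.73 on the log2 scale, adjusted p = 0.0253 by limma over all 8 libraries). That call was lost with the muscle score as a covariate, where no gene passed. Me1, the only member among the 7 genes, was higher in both cold and lower in both HFD libraries than in their controls (difference 2.22, adjusted p = 0.175). Elovl6 had the same arrangement (3.36, adjusted p = 0.0623), as had Mlycd (2.62, adjusted p = 0.0511). The reverse arrangement, lower in cold and higher under HFD, was seen for Pnpla3 (-1.96, adjusted p = 0.10), Thra (-0.79, adjusted p = 0.271) and Nr1h2 (-0.62, adjusted p = 0.385). None of these 6 differences passed in the fit without a covariate. In the fit with library type as a covariate, where 599 of the 18894 genes passed, those of Me1 (adjusted p = 0.0378), Elovl6 (0.0410), Mlycd (0.0180) and Pnpla3 (0.0312) did, and those of Thra (0.151) and Nr1h2 (0.218) did not. These 6 genes were picked for opposite directions in the same 8 libraries, which by itself favours a large difference. The share of all genes that passed is therefore no like background for them.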

How the results depend on the processing

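The HFD values of Fasn, Acaca, Acacb, Acly, Scd1, Me1 and Thrsp and the cold values of Scd1, Srebf1 and Me1 kept their direction under every alternative run, though not their size: without single libraries Acly under HFD ranged from -1.51 to -0.20, Acacb from -0.61 to -0.14, and Scd1 in cold from -1.50 to -0.54. With 2 libraries a group, which calls were made depended on how the spread was modelled, and the cause of the changes below was not tested. Pairing by replicate number was not possible. The 22 °C and 4 °C libraries share no number, and the NCD and HFD libraries share only number 6. The fit with library type blocks on a feature read from the data, not on a label, and is given as a covariate.

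Members past the threshold in cold numbered 0 as reported, 1 with library type as a covariate (Me1), 0 in the fit of all 8 libraries with library type, 1 under median centring (Srebf1) and 2 with both, an alternative chosen after seeing the data (Scd1 and Srebf1). Under HFD they numbered 0 as reported, 4 with library type, 2 under median centring, 5 with both, and 1 in the fit of all 8 libraries with library type. Without single libraries they numbered 0 to 0 in cold and 0 to 2 under HFD (2 without NCD replicate 6 or 8). In the difference of effects 1 member passed with library type and 1 with both (Me1), and 0 to 0 without single libraries. Other pathway genes past the threshold in cold numbered 3 as reported, 5 under median centring, 7 with library type, 7 in all 8 libraries with library type, 8 with library type and median centring, 0 without a filter (14 at an unadjusted p under 0.05), 0 with the muscle score (9) and 0 without an intensity trend (15), and 0 to 7 without single libraries. Under HFD they numbered 0 as reported, 3 under median centring, 4 with library type, 3 in all 8 libraries with library type, 7 with library type and median centring, and 1 to 5 without single libraries.

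Over all genes, the 252 past the threshold in cold became 475 with a pseudocount of 0.1, 529 with a filter of 1 FPKM, 754 under median centring, 489 under quantile normalization, 723 rescaled without Ucp1, 920 with X, Y and mitochondrial genes, 859 with library type, 816 in all 8 libraries with library type, 914 with library type and median centring, and 0 without a filter (4689 at an unadjusted p under 0.05), with the muscle score (3210) or without a trend (4170). Without 22 °C replicate 4 or 7 or 4 °C replicate 2 or 11 they numbered 512, 766, 1 and 450. Calls in the higher direction were 213 of 252 as reported, 495 of 754 under median centring, 312 of 489 under quantile normalization, 457 of 723 rescaled and 581 of 914 with library type and median centring. The 12 under HFD became 24 with a filter of 1 FPKM, 45 under median centring (23 higher, against 9 of 12), 744 with library type (587 higher), 25 in all 8 libraries, 289 in all 8 with library type, 560 with library type and median centring (239 higher), and 0 without a filter (2490 at an unadjusted p under 0.05), under quantile normalization (2126), rescaled without Ucp1 (2340), with X, Y and mitochondrial genes (2532), with the muscle score (2109) or without a trend (2348). Without NCD replicate 6 or 8 or HFD replicate 2 or 6 they numbered 727, 228, 343 and 99. The 196 in the difference of effects became 465 under median centring, 410 under quantile normalization, 94 with X, Y and mitochondrial genes, 599 with library type, 986 with library type and median centring, 55 without a trend, 8 without a filter and 0 with the muscle score (2052 at an unadjusted p under 0.05), and ranged from 6 (without HFD replicate 2) to 539 (without NCD replicate 6) without single libraries.

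Some small changes turned sign, none of them past the threshold under any alternative. In cold, median centring gave Acly -0.0034, Acaca -0.25 and Mlxipl -0.18, also with library type. Quantile normalization gave Acly -0.26, Acaca -0.49, Acacb -0.18 and Mlxipl -0.34, rescaling without Ucp1 gave Acly -0.17, Acaca -0.41, Acacb -0.08 and Mlxipl -0.34, and the muscle score gave Scd2 0.32 and Thrsp 0.41. Without single libraries the cold values ranged from -0.55 to 1.06 for Acly, -0.68 to 0.69 for Acaca, -0.99 to 0.15 for Fasn, -0.75 to 0.64 for Scd2 and -0.43 to 0.58 for Mlxipl. Under HFD, median centring gave Scd2 -0.30, Srebf1 -0.09 and Mlxipl -0.13, also with library type, quantile normalization gave Scd2 -0.27 and Mlxipl -0.05, rescaling without Ucp1 gave Scd2 -0.09, and the muscle score gave Scd2 -0.33, Srebf1 -0.35 and Mlxipl -0.32. Without single libraries the HFD values ranged from -0.19 to 0.30 for Scd2 and -0.04 to 0.56 for Srebf1. In the difference of effects the muscle score gave Scd1 0.53, Scd2 0.65 and Mlxipl 0.93, and without single libraries Scd2 ranged from -0.80 to 0.59 and Mlxipl from -0.66 to 0.35. A pseudocount of 1 moved the mean log2 ratio of Scd2 to Scd1 on NCD from -8.89 to -8.67.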

Other observations

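X-linked genes of the pathway enter no comparison, since they are listed at 0 in both 22 °C libraries and in NCD replicate 6. G6pdx, the first enzyme of the pentose phosphate pathway and a source of NADPH for lipogenesis, measured 77.0 and 55.5 FPKM at 4 °C, 33.5 FPKM in NCD replicate 8, and 44.8 and 54.6 FPKM on HFD. Mid1ip1, which encodes a partner of Thrsp that promotes polymerization of acetyl-CoA carboxylase, measured 10.9 and 6.30 FPKM at 4 °C, 4.25 FPKM in NCD replicate 8, and 5.91 and 7.32 FPKM on HFD. Mbtps2, the site-2 protease that releases SREBP, measured 2.79 and 2.15 FPKM at 4 °C, 1.43 FPKM in NCD replicate 8, and 1.87 and 2.45 FPKM on HFD.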
